A study of Oryza sativa with 12 samples.

Results

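Suberin and Casparian strip barrier genes of rice roots were followed here through 231 unigenes, which are clusters of assembled transcripts, out of 182689 in the deposited table. A unigene was included when its best protein hit in the NR database was from Oryza, as for 68051 unigenes, and when its NR or Swissprot description contained the words CASP-like, Casparian strip, omega-hydroxypalmitate, glycerol-3-phosphate acyltransferase, fatty acyl-CoA reductase, 3-ketoacyl-CoA synthase or cytochrome P450 86. The words were found in both descriptions for 106 unigenes, in NR alone for 9 and in Swissprot alone for 116. A unigene is not a gene: the 231 unigenes carried 125 distinct NR names, and 56 of these names were shared by 2 or more of them. Names below are those of the best hit, mostly of Arabidopsis or rice proteins, and reads can be split between near-identical unigenes.

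The Casparian strip is a ring of lignin-rich wall in the endodermis that blocks the diffusion of solutes between root cells, and in Arabidopsis the Casparian strip membrane proteins, or CASPs, mark the membrane domain where it is laid down. Suberin is a polyester of long-chain fatty acid derivatives, glycerol and ferulate that coats endodermal and, in rice, exodermal cells. 3-Ketoacyl-CoA synthases, or KCS, elongate the acyl chains, cytochromes P450 of the 86A and 86B groups hydroxylate their ends, glycerol-3-phosphate acyltransferases, or GPAT, join them to glycerol, fatty acyl-CoA reductases make the primary alcohols, and feruloyl transferases add the ferulate. Apoplastic barriers of this kind are known to limit the bypass flow of sodium into rice roots.

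Poly-A RNA was sequenced from wild-type (WT) roots in 4 groups of 3 libraries: untreated, 0.1 mM spermidine, 100 mM NaCl, and 0.1 mM spermidine plus 100 mM NaCl, called the combined treatment below. Treated roots were sampled after 72 h, and the labels give no time for untreated ones, so time and treatment cannot be told apart in contrasts with untreated roots. Spermidine, a polyamine that plant cells also make, was tested in roots under salt. Separate cultures are not stated for the 3 libraries of a group, and p-values therefore describe library-to-library spread that may be purely technical. Expression is given as FPKM, a read density corrected for transcript length and library size, whose total over all unigenes was 1312574 to 1371599 per library. The depth in reads is unknown, since FPKM does not carry it. Correlations between libraries of a group over all tested unigenes were 0.928 to 0.929 for NaCl and 0.85 to 0.902 in the other groups.

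Of the 231 unigenes, 150 had a mean of at least 1 FPKM over the 12 libraries and were tested, and 81 did not. The lowest mean tested was 1.0 FPKM and the highest left out was 0.984 FPKM. All 10 members with hits to other KCS, such as KCS12 or KCS17, were among the untested. CASP-like proteins made up 57 members, KCS 78, cytochromes P450 86 27, GPAT 34, reductases 10, feruloyl transferases 7 and CASPs 6. The words also took in 12 hits to 1-acyl-sn-glycerol-3-phosphate acyltransferases, which act in membrane lipid synthesis.

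The summed FPKM of all 231 unigenes ranged from 3292 to 3524 in untreated libraries and from 3704 to 3767 in spermidine libraries. It ranged from 3963 to 4213 under NaCl and from 4133 to 4382 under the combined treatment. All treated libraries lay above all untreated ones. The sum hid opposite courses. CASP-like unigenes summed to 1520 ± 76.3 FPKM (SD, n = 3) untreated, 1580 ± 89.2 with spermidine, 1100 ± 26.9 under NaCl and 1530 ± 28.8 with the combined treatment. KCS11 hits summed to 193 ± 25.5, 224 ± 14.8, 692 ± 45.3 and 262 ± 16.9 FPKM in the same order. Feruloyl transferases summed to 258 ± 45.3, 263 ± 17.8, 299 ± 8.29 and 430 ± 56.8 FPKM. In these sums, NaCl alone was the extreme group for CASP-like and KCS11 unigenes, and the combined treatment was highest for feruloyl transferases. The CASP-like drop lay mostly in the abundant CASPL1U3 and CASPL1D1, and the KCS11 rise mostly in hits that share an NR hit. The median log2 change of CASP-like unigenes with NaCl was -0.15, beside -0.13 over all unigenes.

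Differences were tested with limma on log2(FPKM + 1), a scale that understates changes of low unigenes, and called at an adjusted p below 0.05. With NaCl alone, 34 of 150 members rose and 17 fell relative to untreated, while 10% of all 65836 tested unigenes rose and 12.9% fell. Relative to NaCl alone, 20 members rose and 9 fell with the combined treatment, against 8.63% and 7.18% of all tested unigenes. Relative to untreated roots, 29 members rose and 1 fell with the combined treatment, against 2.38% and 2.99%. Relative to spermidine alone, 19 rose and 2 fell with the combined treatment, against 2.6% and 4.33%. With spermidine alone 2 members rose and 0 fell, against 2.05% and 0.509%, and 24 of 150 members had an unadjusted p below 0.05. All members have an Oryza hit, and among the 41491 tested unigenes with such a hit the shares higher and lower were 12.4% and 14.7% with NaCl, 10.5% and 8.85% for the combined treatment over NaCl, 2.64% and 1.9% over untreated, 3.35% and 1.94% over spermidine, and 0.142% and 0.152% with spermidine alone. The median log2 change of the members was 0.24 with NaCl where that of all unigenes was -0.13, 0.24 against 0.14 for the combined treatment over NaCl, and 0.33 against 0 for the combined treatment over untreated roots. These comparisons share libraries, so their counts are given side by side and were not compared with each other. The shares given here are also the background for the counts of subgroups below.

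Some of these counts depended on scaling and on single libraries. Leaving out any 1 of the 12 libraries kept the 51 calls with NaCl between 40 and 55. Median-ratio scaling moved the median of all unigenes from -0.13 to -0.02 with NaCl and from 0.14 to 0 for the combined treatment over NaCl, and the calls to 39 higher and 12 lower, and to 4 higher and 10 lower, respectively. Fitting the Oryza-hit unigenes alone gave 33 higher and 26 lower with NaCl, and 41 higher and 9 lower for the combined treatment over NaCl, and quantile normalization gave 14 and 10 in the latter. The 29 calls of the combined treatment over NaCl became 18 without NaCl replicate 1, 13 without NaCl replicate 3, 18 without combined replicate 1 and 13 without combined replicate 2. The 30 calls of the combined treatment over untreated became 16, 19 and 12 without untreated replicate 2, untreated replicate 3 and combined replicate 2, and 6 when only those 6 libraries were fitted. The 21 calls over spermidine became 7, 9 and 8 without spermidine replicate 1, spermidine replicate 3 and combined replicate 2. For most calls named below, the number of refits under other settings in which the call held is given as a count of 20 or 21.

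**Figure D1:**
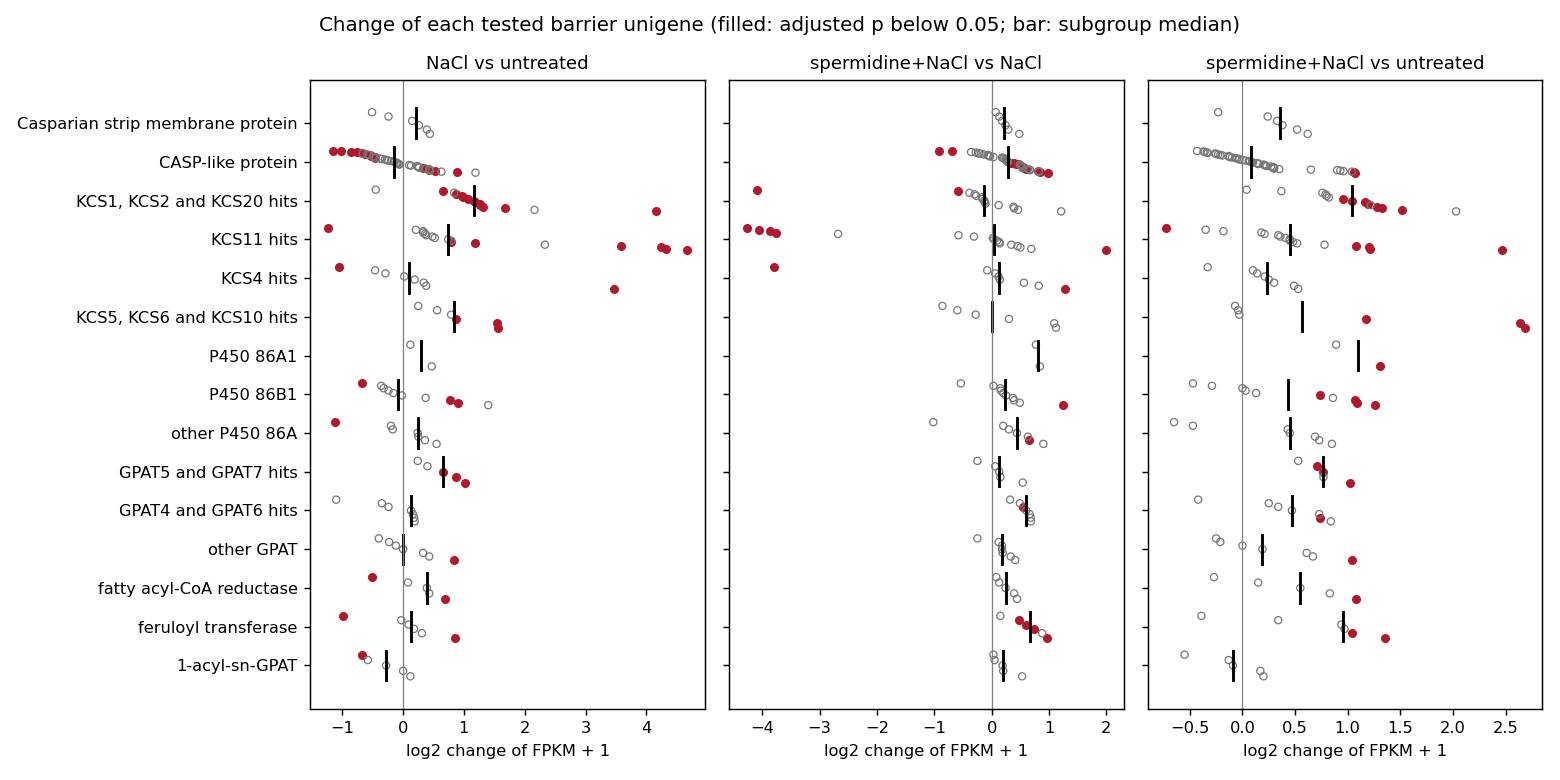
Log2 change of FPKM + 1 (horizontal axis) of every tested barrier unigene, by subgroup (rows), in 3 comparisons (panels). Filled red points passed the adjusted p of 0.05, open points did not, and black bars are subgroup medians. With NaCl, KCS1, KCS2 and KCS20 hits lie mostly right of 0 with a median of 1.16, CASP-like proteins have a median of -0.15, and 6 KCS unigenes lie between 3.46 and 4.67.

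The largest changes were in 6 KCS unigenes that were high with NaCl alone and in no other group. Cluster-52034.60053, a KCS11 hit, measured 7.94, 12.2 and 10.4 FPKM in untreated libraries, 22.2, 21.3 and 12.4 with spermidine, 238, 173 and 216 with NaCl, and 25.2, 6.58 and 8.73 with the combined treatment. Every NaCl library lay far above the other 9. The log2 change was 4.24 ± 0.41 (SE) with NaCl (adjusted p = 5.53e-05, held in 21 of 21 refits) and -4.06 ± 0.41 for the combined treatment over NaCl (adjusted p = 0.000126, 21 of 21). The neighbouring identifier Cluster-52034.60054, a KCS2 hit, rose from 9.61 ± 3.09 to 184 ± 37.6 FPKM and stood at 12.8 ± 12.6 with the combined treatment. Cluster-52034.99418 rose from 5.62 ± 1.87 to 164 ± 11.9 FPKM and stood at 8.66 ± 6.1 with the combined treatment. The same course was seen in Cluster-52034.38443, with 3.29 ± 0.439, 84.3 ± 2.23 and 6.41 ± 6.51 FPKM, and in Cluster-52034.96220, with 0.53 ± 0.0608, 17.6 ± 3.62 and 0.43 ± 0.604 FPKM. The latter had untreated and combined means below the filter of 1 FPKM and passed it through its NaCl libraries. Cluster-52034.71918, a KCS4 hit, measured 7.72 ± 4.58, 88.1 ± 14.2 and 9.45 ± 9.81 FPKM.

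In all 6, combined replicate 1 was the highest of its group, and the 3 combined libraries differed widely. The first 5 share an NR hit, the rice protein listed as OsI_06307, with 2 further members, so they may be parts or variants of the same transcript and do not count as 5 independent observations. Summed over the 7 members with that hit, FPKM was 34.3 ± 6.21 untreated, 63.8 ± 16 with spermidine, 671 ± 83.2 under NaCl and 55 ± 37.4 with the combined treatment. The 2 further members did not follow the course: Cluster-52034.49623 was at 4.57 ± 1.26, 11.6 ± 2.72 and 11.7 ± 1.95 FPKM in untreated, NaCl and combined libraries, and Cluster-52034.89417 at 0.483 ± 0.168, 0.853 ± 0.108 and 1.55 ± 0.304. In a test of the difference itself, the change with spermidine under NaCl was lower than without NaCl by 3.75 to 5.43 on the log2 scale in all 6. The KCS4 hit among them held that call in 13 of 20 refits, its rise with NaCl ended without untreated replicate 1 (adjusted p = 0.0556), and its fall from NaCl to the combined treatment ended when only those 6 libraries were fitted (0.0949). The other 5 held their calls in every refit, also without NaCl replicate 3. Leaf photosynthesis hits, which mark shoot tissue, summed to 12.9, 18.8 and 16.6 FPKM untreated, 106, 10.9 and 8.51 with spermidine, 27.9, 15.4 and 182 with NaCl, and 20.5, 16.9 and 16.5 with the combined treatment. That sum was high in NaCl replicate 3 and spermidine replicate 1, and the 6 KCS unigenes were high in all 3 NaCl libraries. The median log2 change of the 9 tested leaf hits was 1.18 with NaCl and -1.05 for the combined treatment over NaCl, and its interaction was -1.38, the directions also seen in the 6 KCS unigenes. Of the 9, 1 rose with NaCl: a chlorophyll a-b binding protein hit, Cluster-52034.38442, was at 2.15 FPKM untreated, 6.74 with NaCl and 2.94 with the combined treatment. The part of shoot tissue in the course of the 6 KCS unigenes was not tested.

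**Figure D2:**
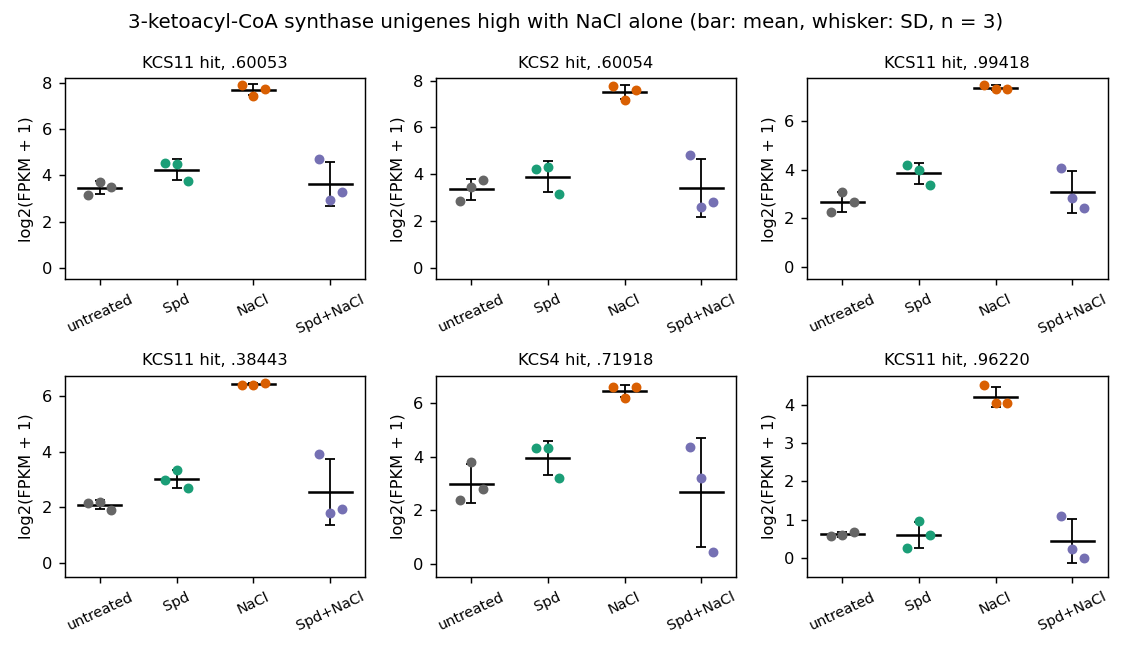
Log2(FPKM + 1) of 6 KCS unigenes in each library (points), with the mean (line) and SD (whisker, n = 3) of each group (Spd, spermidine). The 3 NaCl libraries stand above the 9 others in every panel, and the first library of the combined treatment is the highest of its group.

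KCS1, KCS2 and KCS20 hits rose more broadly. KCS2 and KCS20 elongate suberin precursors in Arabidopsis roots, and KCS1 acts in wax synthesis there. Of 15 tested, 12 rose and 0 fell with NaCl, with a median log2 change of 1.16, and 7 rose and 0 fell with the combined treatment over untreated roots, with a median of 1.04. The 12 include the KCS2 hit Cluster-52034.60054 described above. Several members of the subgroup share an NR name, so the 12 cannot be counted as 12 separate genes. Cluster-52034.80120, a KCS20 hit, measured 17.9, 16.7 and 12.6 FPKM in untreated libraries, 24.8, 23.4 and 17.2 with spermidine, 34.0, 25.9 and 28.6 with NaCl, and 38.5, 44.3 and 39.2 with the combined treatment. The untreated libraries lay below all NaCl libraries, and these below all combined ones. It rose by 0.87 ± 0.17 with NaCl (adjusted p = 0.0037, 21 of 21 refits) and by 1.33 ± 0.17 with the combined treatment over untreated (adjusted p = 0.00319, 21 of 21).

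Cluster-52034.60055, a KCS2 hit with the same NR hit, rose from 25.8 ± 2.64 FPKM to 41.3 ± 1.83 with NaCl and 54.3 ± 7.63 with the combined treatment, both called in 21 of 21 refits. Of the 5 members with the NR name 3-ketoacyl-CoA synthase 1, Cluster-52034.41343 rose from 9.15 ± 1.48 to 31.7 ± 7.12 FPKM with NaCl and stood at 28.6 ± 7.66 with the combined treatment, and Cluster-52034.90565 rose from 8.81 ± 1.59 to 22.5 ± 2.35 and stood at 18.1 ± 3.33, the rises with NaCl holding in 21 of 21 refits. Over the 5 together, FPKM was 33.1 ± 3.59 untreated, 46 ± 7.87 with spermidine, 94.4 ± 9.64 under NaCl and 85.8 ± 11 with the combined treatment. Outside the unigenes high with NaCl alone, the most abundant member of the subgroup, the KCS20 hit Cluster-52034.86578, was at 32.6 ± 14.3 untreated and 55.6 ± 11.5 with NaCl, and did not pass the test (adjusted p = 0.0935).

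KCS6 elongates wax precursors in Arabidopsis shoots. Of 6 tested KCS5, KCS6 and KCS10 hits, 3 rose with NaCl and the same 3 rose with the combined treatment over untreated, all with the NR name 3-ketoacyl-CoA synthase 6. Summed over those 3, FPKM was 8.17 ± 2.97 untreated, 14.2 ± 2.17 with spermidine, 21.2 ± 2.51 under NaCl and 36.9 ± 5.45 with the combined treatment. Cluster-52034.59373 measured 0.66, 0 and 2.07 FPKM in untreated libraries, 4.54, 2.37 and 5.88 with NaCl and 12.5, 7.58 and 9.75 with the combined treatment. The untreated, NaCl and combined libraries did not overlap, and its change from untreated to combined was 2.64 ± 0.39 (adjusted p = 0.00644, 19 of 20 refits, ending at 0.075 when only those 6 libraries were fitted). Its rise with NaCl held in 15 of 20 refits, ending when only those 6 libraries were fitted (adjusted p = 0.11) and without untreated replicates 1 or 2 or NaCl replicates 1 or 3 (0.0569 to 0.0678).

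The most abundant KCS unigenes moved less or the other way. Cluster-52034.65852, a KCS4 hit, was at 122 ± 13.8 FPKM untreated and 155 ± 19.9 with NaCl (adjusted p = 0.107), and the KCS4 hit Cluster-52034.82866 was at 114 ± 5.7 and 132 ± 30.2, also not called. Cluster-52034.74266, with the same NR name, measured 62.8, 63.5 and 61.7 FPKM untreated, 67.6, 68.8 and 67.8 with spermidine, 30.5, 31.6 and 27.0 with NaCl, and 58.2, 81.2 and 81.5 with the combined treatment. NaCl alone was lower than every other library. It fell by 1.06 on the log2 scale (SE 0.12, adjusted p = 0.000166) and rose by 1.27 ± 0.12 with the combined treatment over NaCl (adjusted p = 9.51e-05), both in 21 of 21 refits. Summed over the 6 members named KCS4 by NR, which include a unigene high with NaCl alone, FPKM was 252 ± 39.3 untreated, 307 ± 30 with spermidine, 317 ± 33.5 with NaCl and 318 ± 45.4 with the combined treatment. The KCS11 hit Cluster-52034.91937 fell with NaCl, from 16.6 ± 0.142 to 6.57 ± 1.02 FPKM (21 of 21 refits), and the more abundant KCS11 hit Cluster-52034.65964 was at 62.4 ± 6.77 and 72.1 ± 8.18 (adjusted p = 0.351).

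Among cytochromes P450 86, CYP86A1 is the fatty acid omega-hydroxylase of root suberin in Arabidopsis. The unigene Cluster-52034.74237 measured 38.8, 18.6 and 16 FPKM untreated, 27.2, 21.8 and 43.6 with spermidine, 38.7, 33.8 and 24.6 with NaCl, and 58.6, 57.2 and 57.4 with the combined treatment. The combined libraries lay above all 9 others, which overlapped, and untreated replicate 1 stood above the other untreated ones. Its change from untreated to combined was 1.31 ± 0.33 (adjusted p = 0.0456) but held in 6 of 21 refits, with adjusted p up to 0.153, ending among others without untreated replicates 2 or 3 (0.148 and 0.137) or any combined replicate (0.0907 to 0.133). The other tested 86A1 unigene, Cluster-52034.65894, was at 29.5 ± 10.8 untreated and 53.9 ± 8.81 FPKM with the combined treatment and did not pass (adjusted p = 0.0595).

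CYP86B1 makes very-long-chain suberin monomers in Arabidopsis. Of 10 tested 86B1 hits, 2 rose and 1 fell with NaCl, and 4 rose and 0 fell with the combined treatment over untreated. Cluster-52034.73176 measured 7.69, 8.66 and 4.72 FPKM untreated, 7.94, 9.37 and 7.15 with spermidine, 12.9, 13.8 and 10.6 with NaCl, and 19.9, 20.6 and 13.6 with the combined treatment. Both NaCl groups lay above all libraries without NaCl. It rose by 1.26 ± 0.22 with the combined treatment over untreated (adjusted p = 0.0111, 19 of 21 refits), ending when only those 6 libraries were fitted (0.105) and without combined replicate 2 (0.0523). Its rise with NaCl alone was 0.77 ± 0.22 (adjusted p = 0.0277, 15 of 21 refits). It ended with no filter (0.0531), when only those 6 libraries were fitted (0.0895), and without untreated replicates 1 or 3 or NaCl replicates 1 or 2 (0.0502 to 0.0877). Cluster-52034.88149, with the same NR hit, rose from 11.9 ± 3.58 to 22.7 ± 1.62 FPKM with NaCl (18 of 21 refits), ending when only those 6 libraries were fitted (adjusted p = 0.0554) and without untreated replicate 1 (0.0609) or NaCl replicate 1 (0.0633). Cluster-52034.81121, the most abundant 86B1 hit and named YpgQ by NR, was at 25.8 ± 3.17 FPKM untreated and 25.3 ± 1.2 with NaCl and was not called in any comparison. Cluster-52034.57322 was at 15.6 ± 2.64, 13.7 ± 3.14, 20.4 ± 2.77 and 26.7 ± 4.65 FPKM from untreated to combined, and its call over untreated (adjusted p = 0.0488) held in 5 of 21 refits. The 86B1 hit that fell with NaCl, Cluster-52034.69128, was at 10.8 ± 1.01 untreated and 6.52 ± 1.79 FPKM with NaCl (18 of 21 refits). That call ended under median-ratio scaling (adjusted p = 0.0619), when only those 6 libraries were fitted (0.0861) and without untreated replicate 2 (0.0584).

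Cluster-52034.87276 took another course. Its Swissprot hit is CYP86B1 and its NR hit an alkane hydroxylase MAH1, an enzyme of wax alcohol synthesis in Arabidopsis. It was at 7.28 ± 1.98 FPKM untreated, 8.35 ± 1.62 with spermidine, 6.28 ± 0.338 with NaCl and 16.4 ± 1.85 with the combined treatment, and rose by 1.25 ± 0.18 over NaCl (adjusted p = 0.00102, 21 of 21 refits). The combined libraries lay above all others. Of 7 tested hits to other 86A enzymes, 0 rose and 1 fell with NaCl: Cluster-52034.88774, an 86A4 hit, was at 10.1 ± 1.93 untreated and 4.1 ± 0.832 FPKM with NaCl (21 of 21 refits).

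GPAT5 and GPAT7 are acyltransferases of suberin synthesis in Arabidopsis, while GPAT4 and GPAT6 act in cutin synthesis there. Of 5 tested GPAT5 and GPAT7 hits, 3 rose and 0 fell with NaCl and 3 rose and 0 fell with the combined treatment over untreated, with median log2 changes of 0.66 and 0.77. None of 7 tested GPAT4 and GPAT6 hits passed with NaCl by limma, 0 of them had an unadjusted p below 0.05, and their median was 0.13. With the combined treatment over untreated, 1 of these 7 rose and 0 fell, 4 had an unadjusted p below 0.05, and their median was 0.47. Cluster-52034.57478, a GPAT5 hit, measured 11.3, 6.2 and 7.26 FPKM untreated, 8.68, 10.3 and 6.93 with spermidine, 14.6, 16.8 and 15.2 with NaCl, and 17.9, 14.9 and 19.4 with the combined treatment. All 6 libraries with NaCl lay above the 6 without. It rose by 0.87 ± 0.2 with NaCl (adjusted p = 0.0102, 20 of 21 refits, ending at 0.0554 when only those 6 libraries were fitted). The GPAT5 hit Cluster-52034.83286 rose from 9.19 ± 0.627 to 15.1 ± 0.769 FPKM with NaCl (21 of 21 refits) and stood at 15.9 ± 3.23 with the combined treatment. The GPAT7 hit Cluster-52034.95081, the highest of the subgroup, was at 17.6 ± 2.59 and 23.5 ± 3.4 FPKM and did not pass with NaCl (adjusted p = 0.173). The third GPAT5 hit that rose, Cluster-52034.32418, was at 6.27 ± 0.833 and 14.2 ± 4.77 FPKM, and its call held in 16 of 21 refits, ending when only those 6 libraries were fitted (adjusted p = 0.071) and without untreated replicates 1 or 2 or NaCl replicates 1 or 3 (0.0514 to 0.0681). The GPAT6 hit Cluster-52034.73997 was at 13.6 ± 2.99 with NaCl and 20.1 ± 2.89 FPKM with the combined treatment, a call (adjusted p = 0.0405) that held in 9 of 21 refits.

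Outside these subgroups, Cluster-52034.57150, a hit to probable GPAT3, rose from 10.6 ± 0.873 FPKM to 19.8 ± 2.46 with NaCl and 22.9 ± 3.07 with the combined treatment, both called in 21 of 21 refits. The most abundant GPAT unigene, the GPAT9 hit Cluster-52034.59731, an enzyme of storage and membrane lipid synthesis, was at 42.4 ± 0.476 FPKM untreated and 39.1 ± 3.46 with NaCl and did not pass. Of 5 tested fatty acyl-CoA reductases, 1 rose and 1 fell with NaCl. The most abundant, Cluster-52034.56383, was at 78.3 ± 6.98 FPKM untreated, 106 ± 3.41 with spermidine, 106 ± 16.4 with NaCl and 118 ± 36.1 with the combined treatment, and did not pass in any comparison. The next, Cluster-52034.73798, was at 11.6 ± 4.28 FPKM untreated and 15.2 ± 4.19 with NaCl, and was not called there. Cluster-52034.70324 rose from 7.23 ± 1.64 FPKM to 12.2 ± 2.07 with NaCl and 16.4 ± 3.52 with the combined treatment, where the call with NaCl held in 16 of 21 refits, ending when only those 6 libraries were fitted (adjusted p = 0.071) and without untreated replicates 2 or 3 or NaCl replicates 1 or 3 (0.0615 to 0.0968). Cluster-52034.36357 fell with NaCl, from 16.3 ± 1.71 to 11.1 ± 0.952 FPKM (17 of 21 refits), ending under median-ratio scaling (adjusted p = 0.0776) and without untreated replicates 2 or 3 or NaCl replicate 2 (0.0522 to 0.0634). Of 5 tested 1-acyl-sn-glycerol-3-phosphate acyltransferases, 0 rose and 1 fell with NaCl: Cluster-52034.74956 was at 20.8 ± 2.23 untreated and 13 ± 3.54 FPKM with NaCl (17 of 21 refits), ending under median-ratio scaling (adjusted p = 0.0678), when only those 6 libraries were fitted (0.113) and without untreated replicates 1 or 2 (0.0579 and 0.0787). The most abundant of them, the PLS1 hit Cluster-52034.68850, was at 53.9 FPKM in both groups, with SD of 4.02 and 3.58.

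Omega-hydroxypalmitate O-feruloyl transferase joins ferulate to omega-hydroxy acids and gives suberin its ferulate in Arabidopsis. Of 6 tested members, 4 rose and 0 fell with the combined treatment over NaCl, 2 rose and 0 fell over untreated roots, and 1 rose and 1 fell with NaCl alone. All 4 calls over NaCl ended under median-ratio scaling. Cluster-52034.73301 measured 42.5, 47.5 and 40.9 FPKM untreated, 52.8, 61.9 and 48.3 with spermidine, 89.9, 76.3 and 75.0 with NaCl, and 118, 122 and 98.9 with the combined treatment. The 4 groups did not overlap. It rose by 0.86 ± 0.12 with NaCl (adjusted p = 0.000556), by 1.35 ± 0.12 with the combined treatment over untreated (adjusted p = 0.000769) and by 1.04 ± 0.12 over spermidine (adjusted p = 0.000888), each in 21 of 21 refits. Its rise over NaCl, 0.48 ± 0.12, held in 15 of 21 refits and ended under median-ratio scaling (adjusted p = 0.173), when only those 6 libraries were fitted (0.0665), without NaCl replicates 2 or 3 (0.0614 and 0.0783) and without combined replicates 1 or 2 (0.0545 and 0.081).

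Cluster-52034.62379 and Cluster-52034.52271, which share an NR name, were near the untreated level with NaCl and higher with the combined treatment. The first measured 57.6, 32.1 and 23.2 FPKM untreated, 34.0, 34.7 and 34.5 with NaCl and 77.8, 68.2 and 59.9 with the combined treatment. The second measured 42.8, 33.0 and 22.4, then 40.3, 37.8 and 40.2, then 71.5, 77.3 and 52.2 FPKM. In both, the combined libraries lay above all NaCl libraries and untreated replicate 1 was the highest untreated library. Their rises over NaCl, 0.97 ± 0.26 and 0.73 ± 0.21 (adjusted p = 0.0318 and 0.0381), held in 12 and 9 of 21 refits and ended under median-ratio scaling (0.087 and 0.131). The first call ended when any NaCl or combined replicate was left out (adjusted p = 0.0579 to 0.0931), and the second when any NaCl replicate or combined replicates 1 or 2 were left out (0.0927 to 0.137). The most abundant member, Cluster-52034.71277, was at 100.0 ± 8.67 FPKM untreated, 114 ± 8.33 with NaCl and 127 ± 10.5 with the combined treatment, with adjusted p of 0.245 and 0.0939 against untreated. The member that fell with NaCl, Cluster-52034.77656, from 25.9 ± 2.06 to 12.8 ± 3.19 FPKM (21 of 21 refits), has a Swissprot hit to a (Z)-3-hexen-1-ol acetyltransferase and only an NR hit to a feruloyl transferase. It was also among those that rose with the combined treatment over NaCl. That call was lost in most refits, with an adjusted p of 0.11 under median-ratio scaling.

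**Figure D3:**
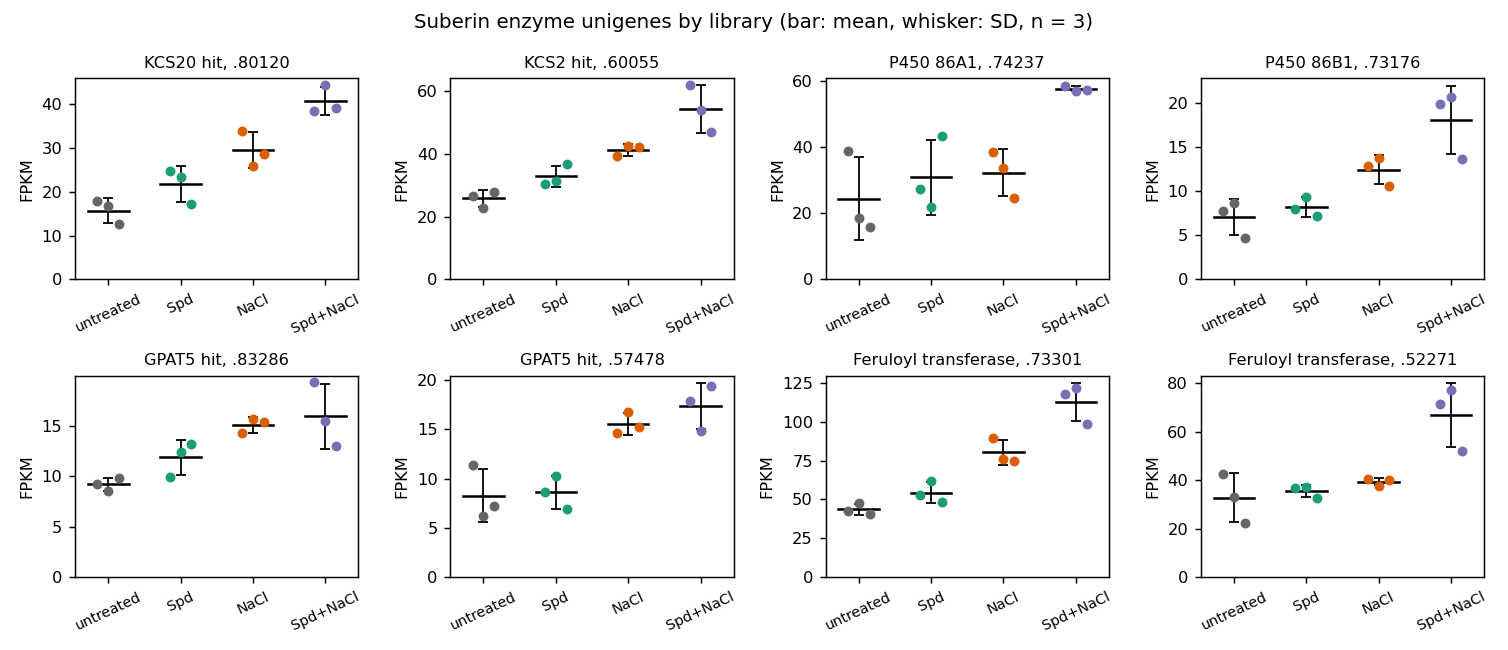
FPKM (vertical axis) of 8 unigenes of suberin enzymes in each library (points), with the mean (line) and SD (whisker, n = 3) of each group (Spd, spermidine). The combined treatment has the highest mean in every panel. The NaCl libraries lie above the untreated ones except in the panels of P450 86A1 and the feruloyl transferase Cluster-52034.52271, where they overlap.

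The 6 CASP hits were all tested, and 0 passed with NaCl by limma, where 3 had an unadjusted p below 0.05. The CASP1 hit Cluster-52034.73094 measured 112, 109 and 118 FPKM untreated, 121, 170 and 147 with spermidine, 110.0, 145 and 123 with NaCl, and 148, 145 and 150 with the combined treatment. The NaCl and untreated libraries overlapped, and the combined libraries lay above all untreated ones. The log2 change was 0.15 ± 0.13 with NaCl (adjusted p = 0.469) and 0.38 ± 0.13 with the combined treatment (adjusted p = 0.123, and 0.0314 when only those 6 libraries were fitted). The CASP2 hit Cluster-52034.77310 was at 32.1 ± 5.11 FPKM untreated, 44.9 ± 8.19 with spermidine, 27 ± 3.12 with NaCl and 37.9 ± 2.8 with the combined treatment.

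The other 4 CASP hits had group means between 5.26 and 15.1 FPKM. Cluster-52034.99219, CASP5 by NR and CASP1 by Swissprot, measured 8.54, 8.11 and 10.1 FPKM with spermidine and 14.8, 15.8 and 14.7 with the combined treatment. No other CASP hit was called in any of the 6 comparisons by limma, and it rose over spermidine by 0.71 ± 0.15 (adjusted p = 0.0168, 19 of 21 refits), and the call ended without spermidine replicate 1 (0.0627) or combined replicate 2 (0.0646). Cluster-52034.91354, CASP5 by Swissprot, was at 8.15 ± 2.48 FPKM untreated and 5.26 ± 0.484 with NaCl, a change of -0.51 ± 0.18 that did not pass (adjusted p = 0.0722, and 0.00808 without untreated replicate 2).

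CASP-like proteins are relatives of CASPs with the same membrane topology, and most of them are not known to act at the Casparian strip. Of 44 tested, 4 rose and 10 fell with NaCl, 0 passed with spermidine alone by limma, where 0 also had an unadjusted p below 0.05, and 11 rose and 2 fell with the combined treatment over NaCl. Most of these 11 rises ended under median-ratio scaling, where only 4 members of any family rose in that comparison. Among the rises lost were those of CASPL1U1 Cluster-52034.55580 (adjusted p = 0.329 by limma) and CASPL4B3 Cluster-52034.62475 (0.198). The most abundant, CASPL1U3 Cluster-52034.72504, measured 458, 431 and 359 FPKM untreated, 428, 446 and 495 with spermidine, 186, 230.1 and 199 with NaCl, and 316, 362 and 398 with the combined treatment. Every NaCl library lay below the 9 others. It fell by 1.02 on the log2 scale with NaCl (SE 0.12, adjusted p = 0.000215) and rose by 0.8 ± 0.12 with the combined treatment over NaCl (adjusted p = 0.00149), both in 21 of 21 refits.

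CASPL1D1 Cluster-52034.72422 followed it, at 339 ± 14.7 FPKM untreated, 359 ± 37.8 with spermidine, 233 ± 8.13 with NaCl and 339 ± 16.1 with the combined treatment, with calls in both comparisons held in 21 of 21 refits. CASPL1U1 Cluster-52034.55580 fell from 61.6 ± 5.61 to 34 ± 5.82 FPKM and CASPL1C1-2 Cluster-52034.68763 from 32.2 ± 7.49 to 13.8 ± 1.9, each in 21 of 21 refits. CASPL4B3 Cluster-52034.62475 fell from 25.4 ± 1.52 to 15.6 ± 0.714 FPKM, also in 21 of 21. The 4 that rose with NaCl changed by 0.33 to 0.89, and 3 of them were CASPL4A3 hits, among them Cluster-52034.73152, from 9.23 ± 0.717 to 12.8 ± 0.921 FPKM (21 of 21). The other CASPL4A3 hits were Cluster-52034.99964, at 9.63 ± 1.21 and 14.2 ± 1.43 FPKM (15 of 21), and Cluster-52034.53947, at 1.13 ± 0.114 and 3.05 ± 1.15 FPKM (16 of 20). The former call ended without untreated replicates 1 or 2 or NaCl replicates 1 or 2 (adjusted p = 0.0732 to 0.116), the latter without untreated replicate 1 or NaCl replicates 2 or 3 (0.0558 to 0.069). CASPL5A1 Cluster-52034.98410 stood at 15 ± 1.16 with NaCl and fell to 8.85 ± 0.842 FPKM with the combined treatment (21 of 21).

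A further course was seen in BLE3, named in rice for its response to brassinolide. Cluster-52034.75669 measured 71.2, 49.5 and 39.6 FPKM untreated, 59.0, 55.8 and 68.1 with spermidine, 71.1, 72.3 and 67.2 with NaCl, and 118, 124 and 89.2 with the combined treatment. The combined libraries lay above all others. A second BLE3 hit, Cluster-52034.77575, was near the threshold of the filter, at 0.633 ± 0.375 FPKM with NaCl and 1.9 ± 0.267 with the combined treatment, and its call (adjusted p = 0.0453) held in 9 of 20 refits. The change of Cluster-52034.75669 over untreated was 1.06 ± 0.19 (adjusted p = 0.0133, 18 of 21 refits), ending when only those 6 libraries were fitted (0.134), without untreated replicate 2 (0.0503) and without combined replicate 2 (0.0613). CASPL1B2 Cluster-52034.58536 measured 21.7, 12.5 and 8.99 FPKM untreated, 13.9, 15.9 and 13.8 with NaCl and 30.2, 33.1 and 25.9 with the combined treatment, and rose over NaCl by 0.98 ± 0.25 (adjusted p = 0.0265, 15 of 21 refits). That call ended under median-ratio scaling (0.0663), with no filter (0.0522) and without NaCl replicates 1 or 3 or combined replicates 1 or 2 (adjusted p = 0.0596 to 0.097).

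**Figure D4:**
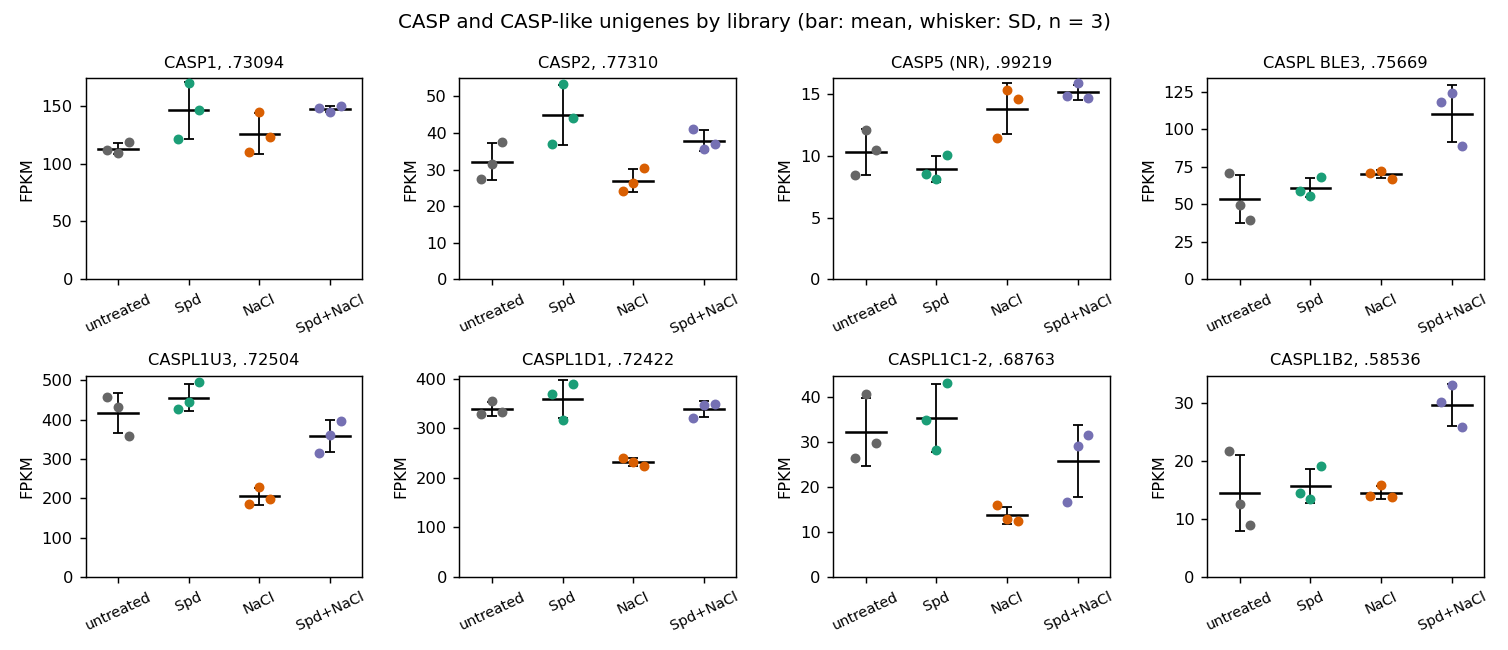
FPKM (vertical axis) of 8 CASP and CASP-like (CASPL) unigenes in each library (points), with the mean (line) and SD (whisker, n = 3) of each group (Spd, spermidine). CASPL1U3, CASPL1D1 and CASPL1C1-2 have their lowest mean with NaCl alone, at 205, 233 and 13.8 FPKM, and BLE3 and CASPL1B2 have their highest with the combined treatment, at 111 and 29.7 FPKM.

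Spermidine alone changed 2 members, both KCS11 hits with the same NR name. Cluster-52034.29406 was listed at 0 in all untreated libraries and measured 13.4, 3.38 and 10.4 FPKM with spermidine, 0, 1.71 and 0 with NaCl, and 1.7, 4.55 and 10.3 with the combined treatment. Cluster-52034.103077 measured 1.27, 1.77 and 1.51 FPKM untreated, 6.19, 4.59 and 5.16 with spermidine, 3.73, 1.85 and 2.47 with NaCl, and 6.92, 4.15 and 3.81 with the combined treatment. In both, all 6 libraries with spermidine lay above all untreated ones, at low levels. Cluster-52034.29406 passed the filter only through libraries with spermidine, so a fall from untreated was not possible. The adjusted p were 0.0186 and 0.0124 by limma, and the calls held in 13 and 15 of 20 refits, ending when only untreated and spermidine libraries were fitted (0.0855 and 0.0607) and when only Oryza-hit unigenes were fitted (0.199 and 0.143). Without untreated replicate 1, spermidine replicate 1 or spermidine replicate 3 both calls ended, with adjusted p of 0.0782, 0.0776 and 0.09 for the first and 0.0633, 0.0534 and 0.0511 for the second. The first also ended without untreated replicate 2 (0.0673) or 3 (0.0575).

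The effect of spermidine was compared between roots with and without NaCl by an interaction term, positive where spermidine raised a unigene more under salt. It was called above 0 in 6 members and below 0 in 7, beside 4.18% and 6.68% of all tested unigenes and 5.33% and 6.78% of those with an Oryza hit. The 7 lower ones were the 6 KCS unigenes high with NaCl alone and CASPL5A1 Cluster-52034.98410, whose call held in 8 of 20 refits and ended with no filter (adjusted p = 0.0943), among Oryza-hit unigenes (0.0595) and in 9 of the fits that left out a library (0.0599 to 0.098). Among the 6 higher ones, the KCS4 hit Cluster-52034.74266 held in 20 of 20 refits. CASPL1U3 Cluster-52034.72504 held in 9 of 20 and ended under median-ratio scaling (0.0965), and CASPL1D1 Cluster-52034.72422 held in 11 of 20 and ended there as well (0.26). These 3 fell with NaCl alone, as did Cluster-52034.74956 and Cluster-52034.91937. Cluster-52034.74956 held in 9 of 20, Cluster-52034.91937 in 14 and Cluster-52034.87276 in 16, and the first and second of these ended under median-ratio scaling (0.115 and 0.0781). The count was 8 without untreated replicate 1, spermidine replicate 1 or NaCl replicate 3, and 7 without combined replicate 2. Under median-ratio scaling it was 2 higher and 8 lower.

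Other genes of the pathway were taken from lists defined by words in the descriptions. With NaCl, 10% of all tested unigenes rose and 12.9% fell. Among tested unigenes with an Oryza hit, 12.4% rose and 14.7% fell, and the GDSL counts below lay near these shares. Very-long-chain reductases and dehydratases complete the elongation cycle that KCS begin: 3 of 15 tested rose and 0 fell with NaCl. Of these 3, PASTICCINO 2B passed the filter only through its NaCl libraries. Of 13 tested long-chain acyl-CoA synthetases, which activate fatty acids, 0 rose and 1 fell. Of 98 tested ABCG transporters, some of which export suberin monomers in Arabidopsis, 23 rose and 5 fell. Of 144 tested GDSL esterases and lipases, a family that includes suberin polymerising and degrading enzymes in Arabidopsis, 22 rose and 20 fell. Of 53 tested lipid transfer proteins 7 rose and 13 fell, and of 41 tested dirigent proteins, which guide lignin coupling, 8 rose and 10 fell. Of 49 tested wax and cutin enzymes, 8 rose and 5 fell, but 18 of the 115 on this list are also members. Of 10 tested hits to the barrier receptor kinases GSO1 and GSO2, whose words also took in a proteasome subunit, 2 rose and 1 fell.

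Single genes of these lists, those with the largest called changes with NaCl, followed several courses. ABCG7 Cluster-52034.46816 was at 0.47 ± 0.236 FPKM untreated, 11.2 ± 0.131 with NaCl and 2.03 ± 3.14 with the combined treatment. Dirigent protein 21 Cluster-52034.50924 was at 3.97 ± 1.41, 147 ± 29.6 and 14.8 ± 11.7 FPKM, and the GDSL hit At4g10955 Cluster-52034.36991 at 0.417 ± 0.228, 56 ± 8.51 and 1.19 ± 1.77. All 3 rose with NaCl in every refit. The ABCG7 and GDSL hits had untreated means below the filter of 1 FPKM and could pass it through their NaCl libraries alone. A fall with NaCl could thus hardly have been called for these hits. The lipid transfer protein hit At2g13820 Cluster-52034.75618 rose with NaCl from 77.6 ± 29.7 to 360 ± 37.5 FPKM and stood at 342 ± 18 with the combined treatment (21 of 21 refits). PASTICCINO 2B Cluster-52034.35897, an elongase dehydratase, was at 4.51 ± 0.876 FPKM with NaCl and listed at 0 in all 9 other libraries. It passed the filter only through the NaCl libraries in which it was high, so a call in the other direction was not possible.

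Among those that fell with NaCl, long-chain acyl-CoA synthetase 8 Cluster-52034.59328 went from 108 ± 3.06 to 75.5 ± 2.96 FPKM and stood at 102 ± 3.2 with the combined treatment. ABCG14 Cluster-52034.72315, which in Arabidopsis moves cytokinins to the shoot, was at 7.39 ± 0.278, 1.05 ± 0.571 and 4.53 ± 0.5 FPKM, and glycolipid transfer protein 3 Cluster-52034.67513 at 5.21 ± 0.905, 0.19 ± 0.156 and 4.24 ± 1.52. Dirigent protein 15 Cluster-52034.82474 was at 35.2 ± 7.54, 8.59 ± 0.332 and 8.04 ± 3.97 FPKM, with both NaCl groups below the untreated mean. The GDSL hit At5g45910 Cluster-52034.109935 was at 20.1 ± 17.8 FPKM untreated and listed at 0 in all 6 libraries with NaCl. All 5 falls held in 21 of 21 refits, except that of glycolipid transfer protein 3, which held in 20 of 20.

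The unigenes named next were the largest called change with NaCl in each direction of their list, so their opposite changes follow from that choice. In the wax and cutin, MYB and receptor kinase lists, both picks had the same hit. Of the hits to SUD1, a ubiquitin ligase also known as ECERIFERUM 9, Cluster-52034.71016 rose with NaCl from 0.523 ± 0.455 to 5.01 ± 0.798 FPKM and Cluster-52034.95834 fell from 18 ± 0.15 to 4.87 ± 1.51. The former had an untreated mean below the filter of 1 FPKM and could pass it through its NaCl libraries alone. Of 22 tested hits to MYB factors that include regulators of suberin and of the Casparian strip, 3 rose and 4 fell with NaCl. MYB36 switches on CASP genes in Arabidopsis. One MYB36 hit, Cluster-52034.97987, rose from 8.03 ± 3.7 to 107 ± 25.5 FPKM with NaCl and stood at 21.2 ± 10.4 with the combined treatment, while another, Cluster-52034.47261, fell from 86.7 ± 28.1 to 15.7 ± 11.8 and stood at 53.4 ± 10.4. The rise held in 21 of 21 refits and the fall in 19, ending when only those 6 libraries were fitted (adjusted p = 0.105) and without untreated replicate 2 (0.0558). GSO1 is the receptor kinase that monitors the Casparian strip in Arabidopsis, and its hits have consecutive identifiers. Cluster-52034.67874 rose from 5.44 ± 0.982 to 56.1 ± 5.23 FPKM with NaCl, and Cluster-52034.67873 fell from 25.8 ± 0.456 to 14.8 ± 2.36, each in 21 of 21 refits. The words for MYB9 also took in MYB93, MYB94, MYB98 and a nicotinamidase.

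Markers of root cell types and of shoot tissue were read from 6 lists. The lists for cells that carry the barriers were silicon transport, with a median log2 change with NaCl of -1.25, and endodermis patterning, with -0.06. The median over all unigenes was -0.13. In bulk RNA, fewer cells of a type and less RNA per cell cannot be told apart. Of all tested unigenes with an Oryza hit, 12.4% rose and 14.7% fell with NaCl. Of 20 tested hits to the silicon transporters of rice exodermis and endodermis, such as NIP2-1, 1 rose and 12 fell with NaCl. Their summed FPKM lay between 5250 and 5700 untreated and between 4700 and 5750 with spermidine, against 2490 to 2860 under NaCl and 3420 to 3820 under the combined treatment. Hits to SCARECROW and SHORT-ROOT, endodermis patterning factors, included other GRAS proteins: of 62 tested, 10 rose and 14 fell, and their sum was 711 to 732 FPKM untreated and 769 to 800 with NaCl. The cortex list summed to 4130 to 4450 FPKM untreated, 4250 to 4870 with NaCl and 4780 to 5420 with the combined treatment, with 5 of 19 up and 3 down with NaCl, and its words also took in DNA repair proteins. Root hair hits rose in 0 and fell in 5 of 23 tested with NaCl, 0 of 4 tested xylem wall synthases passed by limma, and the leaf photosynthesis hits were given above. No member of any list was at 0 in every library. The part of these cell types in the changes of the barrier unigenes was not tested.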

How the data were processed

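Roots of rice gave 12 libraries, 3 in each of 4 groups taken from the labels. The authors deposited FPKM per unigene with the best database hits of each. The submitters' processing notes name RSEM, Bowtie2 and CASAVA 1.8. Which step each served, how the unigenes were assembled and what was filtered is not given in the sources used here. From low values of 751 unigenes, relative depth was estimated at 0.947 to 1.061 of the average. These unigenes were kept only where their positive values were similar across libraries. The narrow range was thus partly set by the selection and does not show that depths were equal. A value of 0 can be a failed estimate.

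The 65836 unigenes that averaged 1 FPKM or more across the 12 libraries were analysed as log2(FPKM + 1), a pseudocount of 1, with limma 3.58.1 in R 4.3.3. The fit had 4 group means over 12 libraries, empirical Bayes variances that follow the mean, two-sided tests, and p-values adjusted by Benjamini-Hochberg for each comparison on its own. The script was tested on simulated data. Errors are SD over 3 libraries for means and SE for log2 changes.

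The members, the lists and the rule for named genes were chosen with earlier results of these data known. By that rule, the text names the 2 most abundant members of each family, those with the largest called changes (up to 3 per direction with NaCl, up to 2 for the combined treatment over NaCl and for the interaction), all called with spermidine alone, and 1 per direction of each other list with NaCl. Other members named, among them the CASPs and further KCS, P450 and GPAT hits, were chosen after their values were seen. Refits changed the pseudocount, the filter, the scaling, the set of unigenes or libraries, or added a replicate block, and left out each library in turn. Same-numbered libraries of different groups correlated at -0.109 to 0.147 in their deviations from group means, so the numbers were not taken to pair libraries. No sequence or position is given.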

Additional observations from a re-analysis of the deposited data

Results flagged for a closer look

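A test of the difference itself, the interaction in the limma fit, separated the change with spermidine under NaCl from the change without NaCl in 13 members. Values are log2 differences of the changes. The KCS11 hits Cluster-52034.99418, Cluster-52034.60053, Cluster-52034.38443 and Cluster-52034.96220 had -5.43, -4.85, -4.79 and -3.75. The KCS4 hit Cluster-52034.71918 had -4.76 and the KCS2 hit Cluster-52034.60054 -4.63. CASPL5A1 Cluster-52034.98410 had -0.52. Positive values were 0.46 for CASPL1D1 Cluster-52034.72422, 0.67 for CASPL1U3 Cluster-52034.72504, 0.94 for the 1-acyl-sn-glycerol-3-phosphate acyltransferase 5 hit Cluster-52034.74956, 0.97 for the KCS11 hit Cluster-52034.91937, 1.07 for the CYP86B1 hit Cluster-52034.87276 and 1.15 for the KCS4 hit Cluster-52034.74266. The calls held in every refit for Cluster-52034.99418, Cluster-52034.60053, Cluster-52034.38443, Cluster-52034.96220, Cluster-52034.60054 and Cluster-52034.74266. They held in 16 of 20 refits for Cluster-52034.87276, 14 for Cluster-52034.91937, 13 for Cluster-52034.71918, 11 for Cluster-52034.72422, 9 for Cluster-52034.72504 and Cluster-52034.74956, and 8 for Cluster-52034.98410. Groups of 3 libraries are too small for a test of single outlying libraries, so none was run.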

How the results depend on the processing

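Counts of members called moved by more than 1.5 times in the following refits; the cause was not tested where only the scaling or set of unigenes changed. Asking for an absolute log2 change of at least 1 as well left 22 for NaCl over untreated, 9 for combined over NaCl, 5 for combined over spermidine and 8 for the interaction. Fitting only the groups compared, with fewer libraries to estimate the spread, left 0 for spermidine over untreated, 14 for combined over NaCl, 6 for combined over untreated and 5 for combined over spermidine. For spermidine over untreated, a mean of at least 5 FPKM and Oryza hits only each gave 0. For combined over NaCl, no filter gave 13, median-ratio scaling 14 and Oryza hits only 50. Leaving out each library gave 40 to 55 for NaCl over untreated, 0 to 3 for spermidine over untreated, 13 to 33 for combined over NaCl, 12 to 30 for combined over untreated, 7 to 24 for combined over spermidine and 7 to 15 for the interaction. With the replicate number as a block, the counts were 50, 2, 23, 27, 20 and 10 in the order NaCl over untreated, spermidine over untreated, combined over NaCl, combined over untreated, combined over spermidine and interaction; the numbers were not taken to pair libraries. For named unigenes, 3087 of 3625 refits of called values kept the call, 538 lost it and 0 reversed, and 139 of 8059 refits of values not called gained one. FPKM without read counts leaves the counting error of low unigenes unknown.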
